A study of Homo sapiens with 6 samples.

Results

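The 10 genes described here are the E2F transcription factors E2F1 to E2F8 and their DP partners TFDP1 and TFDP2, found by their Ensembl gene identifiers among the 57773 genes of an RPKM table. The cells were H460, an established line from a human non-small-cell lung carcinoma. In 3 libraries, named siNT, the cells had received a control siRNA without a target. In the other 3, named siHKlincR1, they had received siHKlincR1_2, directed at HKlincR1 (AC093323.3). The study describes HKlincR1 as a long intergenic non-coding RNA, while the GENCODE v44 annotation used here lists the gene as protein-coding. Both groups received 50 nM siRNA for 48 hours with a lipid reagent, and polyA RNA of 3 biological replicates each was sequenced. The cells carried no other engineered change in the labels. A single siRNA was used, so loss of HKlincR1 and any other action of this siRNA cannot be told apart. An RPKM value is the number of reads on a gene, scaled to the gene's length and to the total reads of the library. In these bulk cultures, fewer cells in a given state and less RNA per cell cannot be told apart.

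E2F proteins bind DNA as dimers and set when the genes for DNA replication are switched on at the boundary between G1 and S phase. In resting and early G1 cells the pocket proteins, of which the retinoblastoma protein is the best known, sit on E2F and keep these genes off. Cyclin-dependent kinases phosphorylate the pocket proteins and release E2F. E2F1, E2F2 and E2F3 are known as activators, E2F4, E2F5 and E2F6 as repressors, and E2F7 and E2F8 are atypical repressors that carry a duplicated DNA-binding domain and need no DP partner. The classical members bind DNA together with TFDP1 or TFDP2. Several E2F genes are themselves E2F targets, so that the family is part of its own circuit.

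HKlincR1 was at 3.62, 3.47 and 3.83 RPKM in the siNT libraries and at 0.563, 0.628 and 0.390 RPKM in the siHKlincR1 libraries, a reduction of 85.5% (limma adjusted p = 0.00245, blocked 0.0138). Here and below, the adjusted p is the Benjamini-Hochberg value over 15451 genes from limma, and the blocked value comes from the same test with the replicate number added as a block. The libraries held between 24980280 and 30521000 reads. The epithelial keratins KRT8, KRT18 and KRT19 were abundant, while the epithelial genes CDH1 and EPCAM had at most 1 and 8 reads in any library. Blood cell and endothelial marker lists summed to at most 0.187 and 0.0217 RPKM, the latter over 3 of 4 genes because PECAM1 was not matched by name. The 5 fibroblast markers summed to between 1.99 and 2.19 RPKM in siNT and between 1.38 and 1.96 RPKM in siHKlincR1 libraries. Of these markers 0 averaged 1 RPKM or more over the 6 libraries and 0 were at 0 in all of them, and the markers differed in direction. COL1A1 averaged 1.10 RPKM in siNT and 0.580 RPKM in siHKlincR1, and PDGFRB 0.627 and 0.879 RPKM, each without overlap of the groups (limma adjusted p = 0.196 and 0.323). Their part in any result below was not tested. Each member had between 180 and 4166 reads in each library.

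The promoters of the family were read first, because E2F sites in E2F genes are the known basis of the circuit. RefSeq promoters on GRCh38.p14, from 250 bases before to 50 bases after the start site, were searched on both strands for the 4 words TTTCCCGC, TTTCGCGC, TTTGCCGC and TTTGGCGC, which are the forms of the classical E2F site. Of the 8 members read (E2F5 and E2F8 were not), 4 held a word, namely E2F1, E2F2, E2F3 and TFDP1. Of 22198 promoters of protein-coding genes 4.10% held one, and of all 35116 promoters 3.31%. These shares count promoters, whereas the members were counted by gene, with a word in any of their promoters. Counted by gene, 619 tested protein-coding genes outside the family held a word and 8305 did not. E2F4, E2F6, E2F7 and TFDP2 held none in these windows. The sequences of the 4 promoters are shown because these genes include every activator and the more abundant DP partner. All 4 were lower on average with siHKlincR1, but so were E2F7, which held no word, and E2F8, which was not read. Among tested protein-coding genes outside the family, 14.7% of those with a word and 14.6% of those without were lower without overlap. The part of the words in these values was not tested. Capitals mark the words.
E2F1 promoter, chr20:33686336-33686635, minus strand: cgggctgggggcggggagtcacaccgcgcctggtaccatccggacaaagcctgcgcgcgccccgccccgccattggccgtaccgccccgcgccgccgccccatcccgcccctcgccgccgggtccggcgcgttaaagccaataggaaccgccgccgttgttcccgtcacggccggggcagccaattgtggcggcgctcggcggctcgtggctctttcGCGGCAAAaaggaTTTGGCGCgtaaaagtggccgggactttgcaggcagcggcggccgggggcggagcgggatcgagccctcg
E2F2 promoter, chr1:23531184-23531483, minus strand: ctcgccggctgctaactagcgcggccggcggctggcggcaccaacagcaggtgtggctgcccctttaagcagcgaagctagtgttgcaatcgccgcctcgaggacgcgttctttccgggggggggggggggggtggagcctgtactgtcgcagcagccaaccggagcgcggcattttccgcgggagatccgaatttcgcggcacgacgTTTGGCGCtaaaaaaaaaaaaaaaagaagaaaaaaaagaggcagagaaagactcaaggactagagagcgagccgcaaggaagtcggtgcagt
E2F3 promoter, chr6:20401629-20401928, plus strand: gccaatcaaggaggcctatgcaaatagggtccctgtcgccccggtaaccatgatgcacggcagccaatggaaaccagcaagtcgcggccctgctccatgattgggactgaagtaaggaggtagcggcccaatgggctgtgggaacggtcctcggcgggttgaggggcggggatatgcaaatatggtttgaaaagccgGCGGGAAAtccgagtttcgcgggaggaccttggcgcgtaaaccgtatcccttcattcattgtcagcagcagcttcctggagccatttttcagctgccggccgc
TFDP1 promoter, chr13:113584503-113584802, plus strand: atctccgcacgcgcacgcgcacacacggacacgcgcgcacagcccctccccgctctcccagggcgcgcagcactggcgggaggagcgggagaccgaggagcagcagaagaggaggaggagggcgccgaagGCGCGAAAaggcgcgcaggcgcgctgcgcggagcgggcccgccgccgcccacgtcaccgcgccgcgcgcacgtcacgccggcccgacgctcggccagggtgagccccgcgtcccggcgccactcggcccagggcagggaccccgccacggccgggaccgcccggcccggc
E2F1 held its words 33 and 20 bases before the start site, the first read on the antisense strand and the second on the sense strand, without overlap. The word of E2F2 lay 42 bases before its start site on the sense strand, that of E2F3 53 bases before on the antisense strand, and that of TFDP1 120 bases before on the antisense strand. E2F3 has a second start site in RefSeq, and the window around it held no word. A match is a string of letters, and binding was not measured.

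The siRNA itself can lower transcripts that pair with its seed, so the seed was also searched for among the family. The strand complementary to HKlincR1 is shown with its seed, positions 2 to 8 from the 5′ end, in capitals.
siHKlincR1_2, strand complementary to HKlincR1: aAGCACACgaguauacuuc
The DNA form of the matching site is GTGTGCT. For each gene only the transcript that the annotation marks as canonical was searched, and other transcripts were not read. In these transcripts the site occurred once each in the 3′ untranslated regions of E2F2, E2F6, TFDP1 and TFDP2 and not in those of the other 6 members. Of 10765 tested genes with a 3′ untranslated region of at least 30 nt, 14.1% held a site. Longer regions have more room for a site, which this share does not take into account. The 4 members with a site had regions of 1206 nt (TFDP1) to 8085 nt (TFDP2). The other 6 had regions of 595 nt (E2F8) to 3284 nt (E2F3). The 4 sites are shown with 7 bases on each side, the site in capitals, from the transcript strand.
E2F2: gtgccccGTGTGCTcagcagc
E2F6: ggatgaaGTGTGCTcctcccc
TFDP1: gataccaGTGTGCTgatgcag
TFDP2: cataggtGTGTGCTgttggtg
On GRCh37 they lie on chromosome 1 from 23834223 to 23834229 (E2F2), chromosome 2 from 11585112 to 11585118 (E2F6), chromosome 13 from 114294782 to 114294788 (TFDP1) and chromosome 3 from 141669196 to 141669202 (TFDP2). Among these 4 genes E2F2 and TFDP1 were lower on average with siHKlincR1, and E2F6 and TFDP2 were not. The part of the seed in these values was not tested.

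In the siNT libraries the members covered a wide range of levels. E2F4 was highest with a mean of 38.1 ± 2.11 RPKM (SD, n = 3), followed by TFDP1 (29.7 ± 3.11), E2F1 (14.5 ± 1.87), E2F3 (11.0 ± 0.139), E2F7 (10.9 ± 0.625), E2F6 (4.22 ± 0.0408), E2F2 (3.71 ± 0.251), E2F8 (2.88 ± 0.228), E2F5 (2.86 ± 0.315) and TFDP2 (2.72 ± 0.267). The siNT values of E2F3 and E2F7 overlapped, as did those of E2F8 and E2F5 and those of E2F5 and TFDP2. All other neighbours in this order were separated in the 3 libraries. E2F4 lay above 91.8% of the 15451 tested genes and TFDP2, the lowest member by RPKM, above 34.8%. RPKM divides reads by gene length, here from 2503 nt (E2F1) to 11895 nt (TFDP2), so this order depends on the lengths used. By reads in the siNT libraries TFDP2 (857, 1099 and 754) was above E2F8 (316, 347 and 325). E2F4 alone made up 43.0%, 43.0% and 43.5% of the summed RPKM of the 8 E2F genes in the siNT libraries and 50.2%, 49.5% and 45.2% in the siHKlincR1 libraries.

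**Figure D1:**
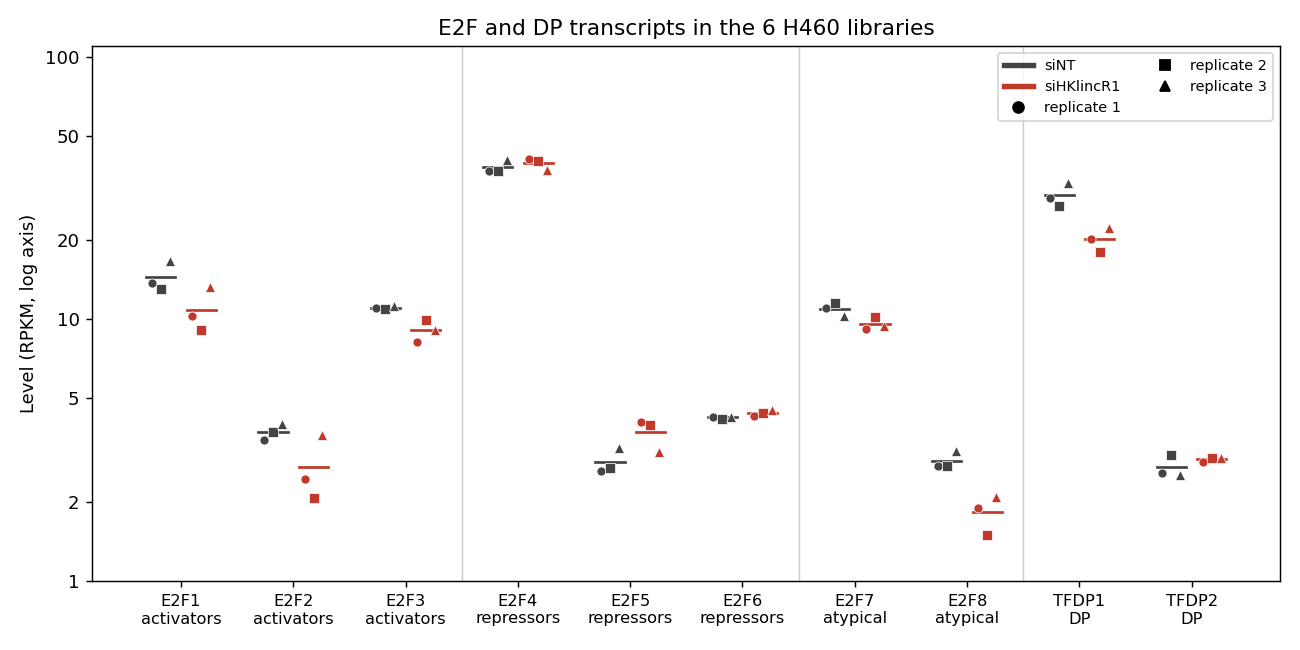
Level of each member in RPKM (log axis) in the 3 siNT (grey) and 3 siHKlincR1 (red) libraries. Each point is 1 library, its shape gives the replicate number, and the bar is the group mean. E2F3, E2F7, E2F8 and TFDP1 are lower in every siHKlincR1 library than in any siNT library, and E2F6 is higher in every one. E2F1, E2F2, E2F4, E2F5 and TFDP2 overlap between the groups.

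With siHKlincR1 the 3 activators, both atypical members and TFDP1 were lower on average, and the 3 repressors and TFDP2 were higher. No member passed the test, which asked for a limma adjusted p below 0.05 together with more than a 1.5-fold change. Of all tested genes 0.362% passed. Deviations of same-numbered libraries correlated weakly, at 0.142, 0.137 and 0.266, against -0.209 to 0.113 for differently numbered ones. In the blocked test 0 members passed both limits, against 1.32% of all genes. There E2F1 and TFDP1 had an adjusted p under 0.05 (2 of 10 members, against 1.72% of all genes on the lower side), with a fold below 1.5. With limma-voom on whole reads recovered from RPKM and the same block, a choice made after the data were seen, 5 members had an adjusted p under 0.05, all lower, against 7.35% of all genes on that side. At an unadjusted p under 0.05, 6 members were lower and 1 was higher, against 9.19% and 7.04% of all genes. The groups did not overlap for 4 members on the lower side and 1 on the higher side, against 11.9% and 10.1% of all genes. With 3 libraries a group, the exact two-sided permutation test allows no p under 0.10, and these 5 members reached it. The median log2 fold change of the 10 members was -0.24, and that of all tested genes was 0.0011.

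**Figure D2:**
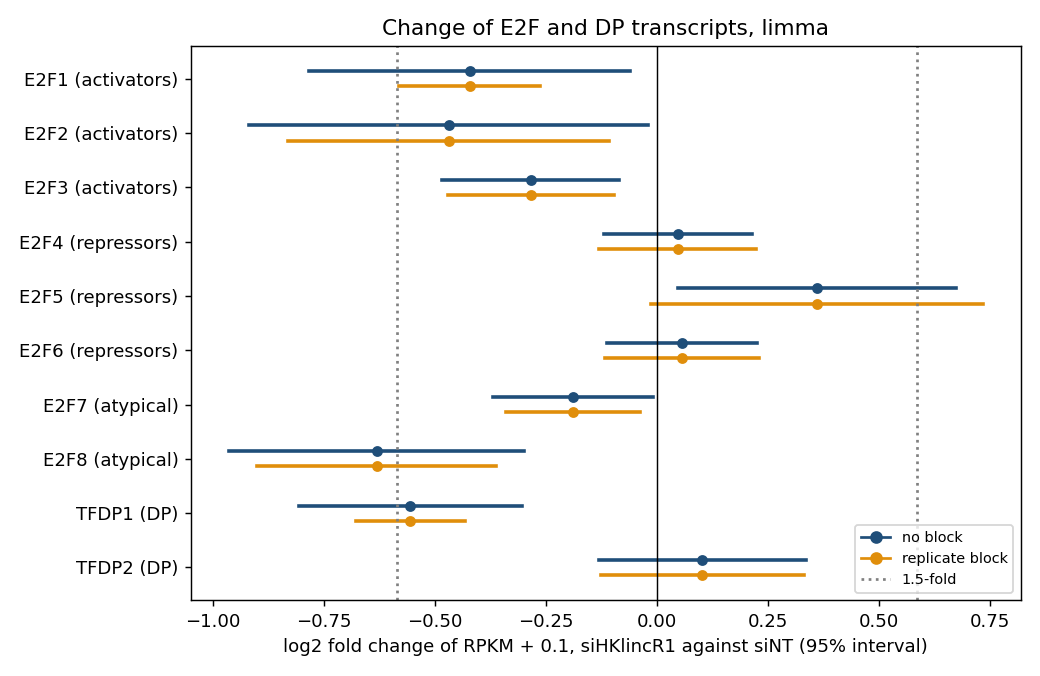
Log2 fold change of each member, siHKlincR1 against siNT, with its 95% interval from limma without (blue) and with (orange) the replicate block. Dotted lines mark a 1.5-fold change. The intervals of the activators, of E2F7, E2F8 and TFDP1 lie below 0 in both fits, and those of E2F4, E2F6 and TFDP2 include it. The interval of E2F5 lies above 0 only without the block.

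E2F1 (ENSG00000101412, GRCh37 chr20:32263283-32274191, minus strand) is the founding activator and a driver of S phase entry. It was at 13.7, 13.1 and 16.6 RPKM in the siNT libraries and at 10.3, 9.06 and 13.2 RPKM in the siHKlincR1 libraries. The highest siHKlincR1 value, from replicate 3, lay just above the lowest siNT value, so the groups overlapped. The log2 fold change was -0.42 (95% interval -0.78 to -0.060, limma adjusted p = 0.268, blocked 0.0444). In each same-numbered pair E2F1 was lower, by log2 differences of -0.42, -0.53 and -0.33.

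E2F2 (ENSG00000007968, chr1:23832930-23857725, minus strand) is an activator that shares most of its targets with E2F1. Its siNT values were 3.47, 3.71 and 3.97 RPKM, and its siHKlincR1 values 2.47, 2.08 and 3.62 RPKM. Replicate 3 of siHKlincR1 lay within the siNT range, while the other two libraries were well below it. The log2 fold change was -0.47 (95% interval -0.92 to -0.020, limma adjusted p = 0.301, blocked 0.126). Without that library it was -0.69 (limma adjusted p = 0.0301).

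E2F3 (ENSG00000112242, chr6:20402110-20493945, plus strand) is the activator whose siNT values were the most even, at 11.0, 10.9 and 11.2 RPKM. With siHKlincR1 it was at 8.21, 9.95 and 9.05 RPKM, so the groups did not overlap. The log2 fold change was -0.28 (95% interval -0.48 to -0.086, limma adjusted p = 0.217, blocked 0.0957). The 3 activators together summed to 28.1, 27.7 and 31.8 RPKM with siNT and to 20.9, 21.1 and 25.9 RPKM with siHKlincR1.

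E2F4 (ENSG00000205250, chr16:67226058-67232821, plus strand) is the main partner of the pocket proteins in resting cells. It was at 36.9, 36.9 and 40.5 RPKM with siNT and at 40.6, 40.2 and 37.1 RPKM with siHKlincR1. The groups overlapped, and the interval of the log2 fold change ran from -0.12 to 0.21 (limma adjusted p = 0.756, blocked 0.709), so that a change of 1.5-fold in either direction lay outside it. E2F6 (ENSG00000169016, chr2:11584501-11606303, minus strand), which works without pocket proteins and within a Polycomb complex, was at 4.23, 4.17 and 4.25 RPKM with siNT and at 4.27, 4.38 and 4.52 RPKM with siHKlincR1. Its groups did not overlap, and its log2 fold change was 0.06 (95% interval -0.11 to 0.22, limma adjusted p = 0.707, blocked 0.641).

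E2F5 (ENSG00000133740), which like E2F4 binds pocket proteins, had the largest positive value in the family. It was at 2.64, 2.71 and 3.22 RPKM with siNT and at 4.04, 3.96 and 3.11 RPKM with siHKlincR1. Replicates 1 and 2 were above every siNT library and replicate 3 was within their range. The log2 fold change was 0.36 (95% interval 0.047 to 0.67, limma adjusted p = 0.271, blocked 0.201). Exons of E2F5 overlap those of RBIS on the opposite strand, and whether the counting used strand is not given in the sources used here. RBIS itself was lower on average with siHKlincR1 (8.73 ± 0.312 against 7.82 ± 0.384 RPKM, SD, n = 3, log2 fold change -0.16, limma adjusted p = 0.328).

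E2F7 and E2F8 repress E2F1 and other G1/S genes later in the cycle. E2F7 (ENSG00000165891, chr12:77415028-77459349, minus strand) was at 11.0, 11.5 and 10.3 RPKM with siNT and at 9.14, 10.2 and 9.44 RPKM with siHKlincR1, with no overlap. Its log2 fold change was -0.19 (95% interval -0.37 to -0.0080, limma adjusted p = 0.301, blocked 0.134). E2F8 (ENSG00000129173, chr11:19245610-19263167, minus strand) had the log2 fold change farthest below 0 in the family. It had 316, 347 and 325 reads in the siNT libraries and 224, 180 and 261 reads in the siHKlincR1 libraries. That corresponds to 2.75, 2.75 and 3.14 against 1.90, 1.503 and 2.11 RPKM, again with no overlap. Its log2 fold change was -0.63 (95% interval -0.96 to -0.30, limma adjusted p = 0.142, blocked 0.0525). The study counted E2F8 among its down-regulated genes in these libraries, using edgeR on read counts. After HKlincR1 knockdown it also reported lower E2F8 by quantitative PCR in H460 and other lung cancer lines. E2F8 was picked from these libraries, so its direction here is no independent evidence. The ratio of E2F7 to E2F8 was 4.01, 4.19 and 3.27 with siNT and 4.81, 6.76 and 4.48 with siHKlincR1. Every siHKlincR1 ratio was above every siNT ratio, and how often ratios of other genes separate was not worked out.

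TFDP1 (ENSG00000198176, chr13:114239036-114295788, plus strand) encodes the DP partner used by most E2F dimers, and it was the member with the smallest p. It was at 29.0, 27.1 and 33.2 RPKM with siNT and at 20.2, 18.1 and 22.3 RPKM with siHKlincR1. Every siHKlincR1 library lay below every siNT library, and the same-numbered pairs differed by nearly the same amount, with log2 differences of -0.52, -0.58 and -0.57. The log2 fold change was -0.56 (95% interval -0.81 to -0.30, limma adjusted p = 0.101, blocked 0.0175). TFDP2 (ENSG00000114126, chr3:141663270-141868386, minus strand), its paralogue, was at 2.60, 3.03 and 2.54 RPKM with siNT and at 2.84, 2.96 and 2.95 RPKM with siHKlincR1, with overlapping groups and a log2 fold change of 0.10 (95% interval -0.13 to 0.33, limma adjusted p = 0.617, blocked 0.519). The ratio of TFDP1 to TFDP2 was 11.2, 8.95 and 13.1 with siNT and 7.12, 6.11 and 7.56 with siHKlincR1.

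TFDP1 has processed pseudogenes, whose reads cannot be separated from it with certainty. TFDP1P2 was at 7.265, 7.911 and 8.527 RPKM with siNT and at 4.600, 4.891 and 5.596 RPKM with siHKlincR1, with no overlap. Its log2 fold change was -0.64 (limma adjusted p = 0.0657, blocked 0.0225, where it passed both limits). TFDP1P3 averaged 2.57 RPKM with siNT and 1.73 RPKM with siHKlincR1 (limma adjusted p = 0.213). The most reads that any of the 10 annotated pseudogenes of the family had in a library was 297, against 3114 for TFDP1 in the same library. E2F6P1 averaged 2.08 and 2.12 RPKM (log2 fold change 0.04, limma adjusted p = 0.917).

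**Figure D3:**
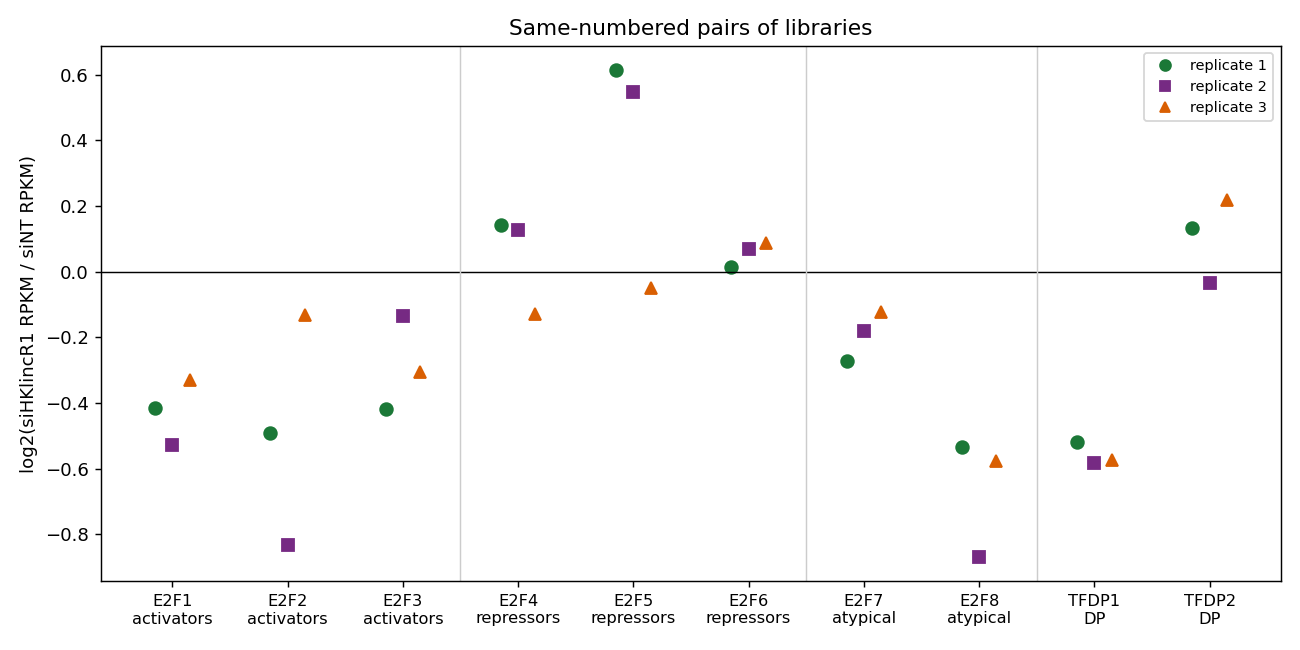
Log2 ratio of siHKlincR1 to siNT RPKM within each pair of libraries with the same replicate number. Green circles are replicate 1, purple squares replicate 2 and orange triangles replicate 3. TFDP1 has 3 nearly equal values, whereas E2F2 spans -0.83 to -0.13 and E2F5 spans -0.050 to 0.61.

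The classes were also compared as sums within each library. The ratio of activator to repressor RPKM was 0.644, 0.634 and 0.662 in the siNT libraries and 0.428, 0.435 and 0.579 in the siHKlincR1 libraries. All siHKlincR1 ratios were below all siNT ratios, with replicate 3 the nearest to siNT. How often ratios of other genes separate in this way was not worked out. The repressor sum averaged 45.15 RPKM in siNT, of which E2F4 gave 38.07 RPKM, so this ratio says little of E2F5 and E2F6. The ratio of atypical to activator RPKM was 0.490, 0.514 and 0.422 with siNT and 0.527, 0.553 and 0.446 with siHKlincR1, with overlapping groups. The DP genes summed to 31.6, 30.1 and 35.7 RPKM with siNT and to 23.1, 21.0 and 25.3 RPKM with siHKlincR1.

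By level, replicate 3 was the siHKlincR1 library nearest to the siNT mean for E2F1, E2F2, E2F4, E2F5, E2F8 and TFDP1, and it had the lowest HKlincR1 level of all libraries. Replicate 2 was nearest for E2F3 and E2F7, and replicate 1 for E2F6 and TFDP2. Within pairs HKlincR1 differed by -2.69, -2.47 and -3.29 on the log2 scale for replicates 1, 2 and 3. Without this library 3 members passed both limits, namely E2F2, E2F8 and TFDP1, with log2 fold changes of -0.69, -0.73 and -0.63 and limma adjusted p-values of 0.0301, 0.0353 and 0.0299. For all genes the count of calls then was 518 instead of 56.

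The genes around the family were read from the same test. Among the pocket proteins RB1 was at 11.5, 11.6 and 11.0 RPKM with siNT and at 11.0, 10.3 and 12.5 RPKM with siHKlincR1, with an interval of -0.22 to 0.19 for its log2 fold change. RBL1 and RBL2 had log2 fold changes of -0.16 and 0.12, and none of the 3 passed (limma adjusted p between 0.564 and 0.934). Of the 7 CDK inhibitors, CDKN2A had 1 read in 1 of 6 libraries and CDKN2B had 0 reads in each, at or under a floor of 3 reads. CDKN1C had at most 11 reads. CDKN1A, CDKN1B and CDKN2D, which encode p21, p27 and p19, had log2 fold changes of -0.14, 0.15 and -0.16 (limma adjusted p = 0.436, 0.473 and 0.522). The 4 tested inhibitors did not pass, and CDKN2C, which holds CDK4 and CDK6, had the value farthest from 0 (log2 fold change -0.52, limma adjusted p = 0.345, blocked 0.150).

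Of the 8 tested G1 cyclins and kinases 6 were lower on average and none passed the test. CCNE2 and CCNE1, the E-type cyclins that activate CDK2, had log2 fold changes of -0.90 (limma adjusted p = 0.230, blocked 0.0687) and -0.51 (0.170, blocked 0.0807). CCNE2 was at 2.13, 2.02 and 2.53 RPKM with siNT and at 0.879, 0.888 and 1.88 RPKM with siHKlincR1, so that replicate 3 was again nearest to siNT. CCNE1 was at 4.08, 4.12 and 4.74 RPKM with siNT and at 2.67, 3.53 and 2.86 RPKM with siHKlincR1. CCND3, a D-type cyclin, was at -0.60 (0.292, blocked 0.0615), and CDK6 was on the higher side at 0.29 (0.227, blocked 0.0553). Among the 7 genes of the DREAM complex and its mitotic partners, the core subunits LIN9, LIN37, LIN52, LIN54 and RBBP4 lay between -0.13 and 0.08. FOXM1, which drives G2/M genes, was at 27.3, 27.9 and 33.6 RPKM with siNT and at 19.6, 16.8 and 25.6 RPKM with siHKlincR1. Its groups did not overlap, and its log2 fold change was -0.53 (limma adjusted p = 0.223, blocked 0.0444), and that of MYBL2 was -0.31 (0.305, blocked 0.0742). None of the 7 passed both limits.

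None of the 4 genes listed for limiting E2F protein passed the test. CCNF, a ubiquitin ligase subunit that marks E2F proteins for degradation, was at 7.22, 7.03 and 8.34 RPKM with siNT and at 4.83, 3.80 and 6.05 RPKM with siHKlincR1. Its groups did not overlap, and its log2 fold change was -0.63 (limma adjusted p = 0.182, blocked 0.0471, where it passed both limits). FZR1, an activator of the anaphase-promoting complex, was at -0.34 (limma adjusted p = 0.198), SKP2 at -0.08 (0.770) and CCNA2 at -0.07 (0.842), and the groups of SKP2 and of CCNA2 overlapped. The 10 partners of E2F6 in its Polycomb complex had a median of -0.0033, with PCGF6 at -0.36 and MAX at 0.23, MGA at 0.17 and RNF2 at 0.09. The 6 coactivators had a median of 0.014, with CREBBP at 0.15, HCFC1 at -0.12, EAPP at -0.09 and EP300 at 0.06. None of these 16 genes passed the test (limma adjusted p between 0.219 and 0.981).

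None of the 40 tested genes in a list of G1/S targets of E2F passed the test. The list held 42 genes, of which 40 were tested, since TP73 had at most 8 reads and UHRF1 was not matched by name. Of these, 37 had a negative log2 fold change, as had 49.8% of all genes, and the median was -0.24, against 0.0011 for all genes. The groups did not overlap for 8 of the 40 on the lower side and 1 on the higher side, against 11.9% and 10.1% of all genes. The values farthest from 0 were those of CCNE2 (-0.90), CDC6 (-0.65), FEN1 (-0.64), TYMS (-0.62), ORC1 (-0.60), PCNA (-0.57), CCNE1 (-0.51) and TK1 (-0.45), with limma adjusted p-values between 0.170 and 0.328. CDC6, which loads the replicative helicase, was at 24.9, 24.0 and 28.4 RPKM with siNT and at 14.2, 14.3 and 21.3 RPKM with siHKlincR1, and it passed both limits in the blocked test (limma adjusted p = 0.0437). PCNA, the sliding clamp of DNA polymerase, was at 82.9, 87.6 and 107.4 RPKM with siNT and at 54.3, 45.7 and 95.4 RPKM with siHKlincR1, with overlapping groups. EZH2 was the gene with separated groups on the higher side, at 17.6 ± 0.477 and 20.8 ± 1.61 RPKM (SD, n = 3). The study also counted CDC6 among its down-regulated genes in these libraries and reported it lower by quantitative PCR in H460 and other lung cancer lines. CDC6 was picked from these libraries, and the list was written with earlier results known. The direction of the list is therefore no independent evidence.

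**Figure D4:**
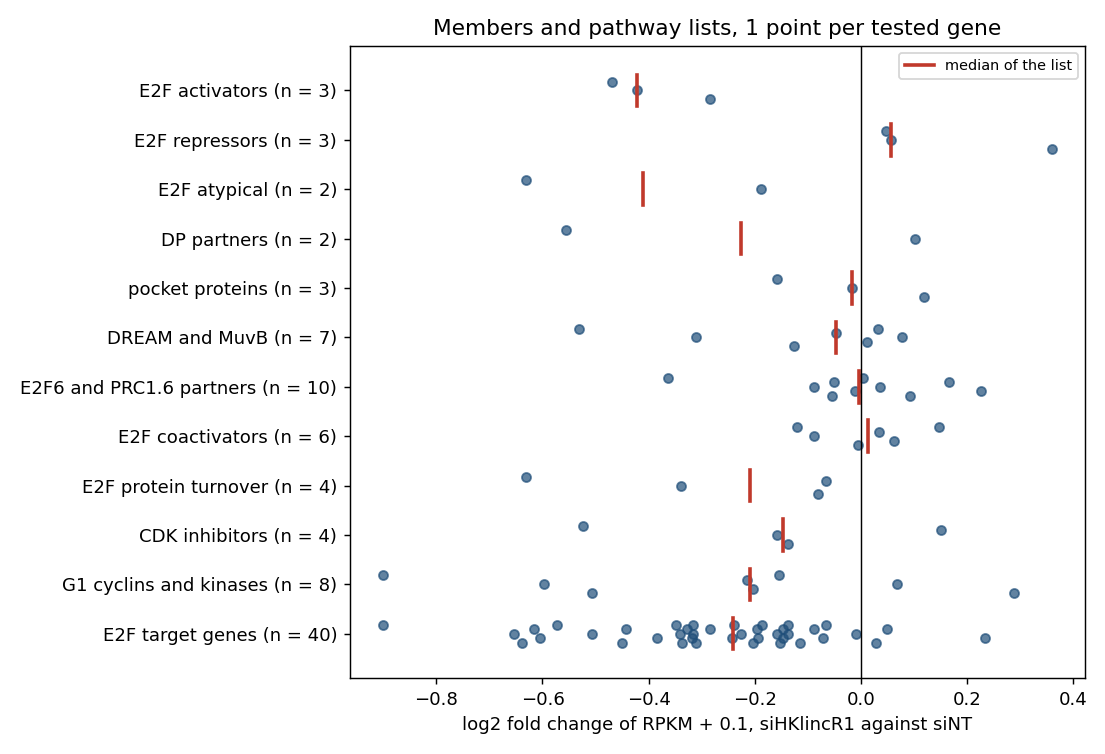
Log2 fold change of every tested gene of the family and of the lists around it, 1 point per gene, with the median of each list in red. Medians lie at -0.42 for the activators and -0.24 for the E2F targets, and near 0 for the pocket proteins (-0.017), the coactivators (0.014) and the Polycomb partners of E2F6 (-0.0033). They lie at -0.41 for the atypical members, -0.23 for DP partners, and -0.21 for both protein turnover and G1 cyclins and kinases. CDK inhibitors have -0.15, DREAM and MuvB -0.046 and the repressors 0.056. A gene in more than 1 list has a point in each.

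To place the patterns of single members, 13400 other genes averaging 1 RPKM or more were ranked by the root mean square difference of their centred log2 values over the 6 libraries. Closest to E2F1 were NRM (0.0063), POLR3K (0.024) and MBOAT7 (0.029). Closest to E2F2 were NHS (0.032), ARHGEF40 (0.039) and TUBB (0.042), closest to E2F7 were KBTBD2 (0.023), GNG12 (0.025) and NUAK1 (0.026), and closest to E2F8 were ITPKA (0.047), KCTD2 (0.049) and AP1S1 (0.050). Neighbours were named only for these members. The centred values still held the difference between the groups, so genes with a like fold change rank near. Among so many genes some lie close to any pattern, and shared control was not tested.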

How the data were processed

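RNA was measured by strand-specific polyA sequencing in 6 libraries of H460 cells. Per the study's methods, Rsubread assigned reads to Ensembl v74 genes on GRCh37, and the authors deposited RPKM values. CASAVA 1.8.2 and featureCounts stand in the submitters' processing notes, and the aligner and strand setting are not given in the sources used here. Columns were matched to samples by title. Because the RPKM values are not rounded, library totals and whole reads were worked back for all 31287 genes above 0 (no value was further than 3.8e-10 reads from a whole number), and RPKM remained the unit of the main test.

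Genes averaging 0.5 RPKM or more over the 6 libraries (15451) were kept, log2(RPKM + 0.1) was fitted in R 4.3.3 with limma 3.58.1 (lmFit, then eBayes with trend), and p-values were adjusted by Benjamini-Hochberg over all kept genes. Fold changes are on this scale, which understates low genes. The study's limits, an adjusted p of 0.05 and a fold of 1.5, were kept. The fit was tested on simulated data before use. There, at a log2 fold change of 0.6, the main fit recovered 77 of 200 genes and the blocked fit 0. At a log2 fold change of 1.5 they recovered 185 and 186 of 200 genes. The simulated libraries were drawn without any deviation shared by same-numbered libraries. How many genes the blocked fit recovers where libraries do deviate together was therefore not measured.

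Pairing comes from the replicate numbers in the titles. Deviations from the group means correlated at 0.142, 0.137 and 0.266 between same-numbered libraries, over the limit of 0.1 in every pair, and at -0.209 to 0.113 between differently numbered ones. The highest of the latter was over that limit as well. Alternatives changed the pseudocount, filter, scaling, variance model and block, used voom on the reads, or left out a library. The members and lists were chosen with earlier results of these data known. Named genes were all members and, in each list, those called and the 4 largest changes (8 for the E2F targets), plus all pocket proteins and CDK inhibitors. Gene models come from GENCODE v44 on GRCh37, promoters from RefSeq on GRCh38.p14, and coordinates of the builds were not mixed.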

Additional observations from a re-analysis of the deposited data

How the results depend on the processing

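Each member kept the sign of its log2 fold change in all 16 alternatives run. No member passed both limits except under voom on the reads with the replicate block, where 1 did (E2F8, log2 fold change -0.65, limma adjusted p = 0.00891), and when siHKlincR1 replicate 3 was left out. That voom fit with the block was chosen after seeing the data. With one library left out the number of members passing ran from 0 to 3, and the highest value came without siHKlincR1 replicate 3. For the E2F targets, 0 passed without a block, 1 with the replicate block, 4 with voom and the block, and 0 to 7 with one library left out, again most without siHKlincR1 replicate 3. For all tested genes, 56 passed, against 17 without the mean-variance trend, 204 with the replicate block (125 lower and 79 higher, against 55 and 1), 87 with voom and 423 with voom and the block (261 lower and 162 higher). With one library left out it was 7 to 518, namely 7 without siNT replicate 1 or 2, 14 without siNT replicate 3, 8 without siHKlincR1 replicate 1, 18 without replicate 2 and 518 without replicate 3. The cause of these changes was not tested. HKlincR1 passed under every alternative run, from -2.79 to -1.61 on the log2 scale. On log2 RPKM the replicate block changed no call of a member at both limits, and on the voom reads it added that of E2F8. Scaling moved the median of all genes from 0.0011 to at most 0.0062.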

Other observations

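The E2F words of the promoters were also looked for over all tested protein-coding genes with a RefSeq promoter, the family left out, after the values had been seen. The 619 genes with a word had a median log2 fold change of -0.036 and the 8305 genes without one -0.013. The groups did not overlap on the lower side for 14.7% of the genes with a word and 14.6% of those without, and on the higher side for 9.85% and 10.8%. Of 34 tested genes of the E2F target list with a promoter, 18 held a word. No test was run on these counts.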
